A study of Rattus norvegicus with 16 samples.

Results

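The comparison concerned the resting difference between brain tissue and blood cells in rats that had surgery without injury. It used the 4 sham libraries of hippocampal CA1 and the 4 sham libraries of white blood cells (WBC), 8 of the 16 libraries of a study of traumatic brain injury (TBI). The animals were male Sprague Dawley rats of 200 to 240 g, and both tissues were taken 1 week after surgery, following a test of learning. The sham rats had no injury, and no genotype, transgene or drug is named for either tissue. The sources used here give neither the way the white blood cells were isolated nor whether equal numbers in the 2 tissues stand for 1 rat. The p-values below weigh a difference between the tissues only against the spread between these libraries, which may be technical. FPKM, the unit of all levels, divides the fragments of a gene by its length and by the size of the library, so levels of different genes can be set side by side. The number of fragments behind a library is unknown. Genes were matched by symbol, which gave 16086 genes measured in all 8 libraries.

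CA1 is a field of the hippocampus whose excitatory pyramidal neurons receive glutamatergic input, alongside inhibitory interneurons, astrocytes, oligodendrocytes, microglia and vessels. White blood cells comprise lymphocytes, monocytes and granulocytes. A preparation from blood can also hold platelets and reticulocytes, the young red cells that still carry RNA for hemoglobin and heme synthesis. In such bulk RNA a lower level can come from fewer cells of a type or from less RNA per cell, and these cannot be told apart.

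The 2 tables were normalized separately by the authors, so levels across them are described and not tested. A gene was called CA1-high or WBC-high where the tissue means differed by at least 4-fold on the scale of log2(FPKM + 0.5), a difference of 2, and no library of the lower tissue reached the lowest library of the higher tissue. By this rule 3012 genes (18.7%) were CA1-high, 1422 (8.84%) were WBC-high and 11652 (72.4%) were neither. The median difference over all genes, CA1 minus WBC, was 0.05. With no limit on fold, the CA1 libraries lay above the WBC libraries in 43.3% of genes and below them in 23.8%. Of the called genes 67.9% were CA1-high, and after quantile normalization, which forces all libraries to 1 distribution, 51.6% were (2201 CA1-high and 2066 WBC-high). Pearson's r across genes was 0.993 to 0.996 between CA1 libraries, 0.993 to 0.994 between WBC libraries and 0.598 to 0.616 between libraries of different tissues. Genes are not independent replicates. At least 10 FPKM in all 4 libraries was reached by 5324 genes in CA1 and by 4217 in WBC. Of these, 906 CA1 genes and 275 WBC genes stayed below 1 FPKM in every library of the other tissue.

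**Figure D1:**
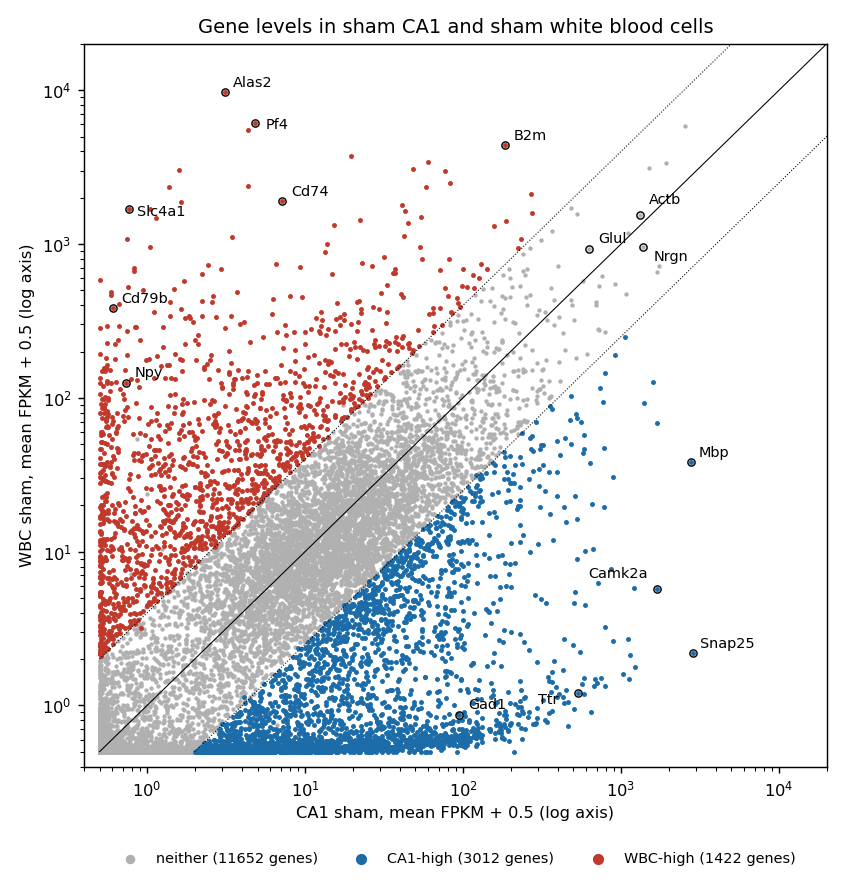
Mean FPKM + 0.5 of each of the 16086 matched genes in the 4 CA1 sham libraries (x, log axis) and the 4 WBC sham libraries (y, log axis). Each point is a gene, the solid line marks equal levels and the dotted lines a 4-fold difference. Snap25 and Camk2a lie far below the diagonal, Alas2 and Pf4 far above it, and Glul, Nrgn and Actb close to it.

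The presynaptic SNARE Snap25 was the highest gene of CA1, at 2186, 3100, 3317 and 2779 FPKM, against 1.92, 0.955, 1.91 and 1.95 FPKM in WBC, a log2 difference of 10.36 ± 0.23 (SE, n = 4 per tissue). No library of either tissue came near the other, and the WBC values were close to the pseudocount, which limits how large such a difference can become. The kinase Camk2a, which acts in postsynaptic plasticity, had 1239, 1696, 1873 and 1935 FPKM in CA1 and 3.32 to 8.15 in WBC. The vesicular glutamate transporter Slc17a7 had 684, 815, 839 and 848 FPKM in CA1 and 0.676 to 0.995 in WBC. In all 3 genes CA1 sham 1 was the lowest CA1 library, and the tissues did not overlap.

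The 12 largest differences on the CA1 side among genes of at least 20 FPKM ran from 10.36 to 8.99 and included genes known from neurons and from glia. After Snap25 stood S100b, a calcium-binding protein of astrocytes (1121 ± 209 FPKM in CA1, SD, and 0.980 ± 0.417 in WBC), and Slc1a2, the main glial glutamate transporter (643 ± 102 and 0.409 ± 0.166). The neuronal calcium sensor Hpca had 1222 ± 238 FPKM in CA1 and 1.27 ± 0.261 in WBC. They were followed by Sparcl1, a matricellular protein secreted by astrocytes (difference 9.33), Psd (9.30), the brain metallothionein Mt3 (9.26), Slc17a7 (9.23), the tetraspanin Tspan7 (9.09), the neurofilament light chain Nefl (9.05), the reticulon Rtn1 (9.02) and the synaptic vesicle protein Syp (8.99). The neurofilament gene was also among the steadiest, at 493 to 506 FPKM in the 4 CA1 libraries.

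Machinery for releasing and sensing transmitter was CA1-high nearly throughout. Of 21 measured genes of synaptic vesicle release 19 were CA1-high (all genes, 18.7%) and none WBC-high, with a median difference of 5.32. All 16 ionotropic glutamate receptor subunits were CA1-high, led by the AMPA receptor subunit Gria1 (276 FPKM in CA1, 0.256 in WBC) and the NMDA receptor subunit Grin1 (122 and 0.0608). After quantile normalization 14 of the 16 were. Of 14 subunits of the GABA-A receptor, the chloride channel of fast inhibition, 12 were CA1-high, among them Gabra5 (102 and 0.119 FPKM). The other two, Gabre and Gabrq, were below 1 FPKM in all 8 libraries. Among postsynaptic scaffolds 18 of 20 were CA1-high, with Dlg4 (PSD-95) at 313 and 4.41 FPKM. The exceptions Dlg1 (23.0 and 10.2) and Dlgap4 (60.8 and 41.5) are scaffolds measured in both tissues.

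Ion channels followed the same split with a few exceptions. Of 23 voltage-gated sodium, calcium and HCN channel genes 21 were CA1-high, and Cacna1c, a pore subunit of L-type calcium channels, was the 1 member with a higher mean in WBC (7.63 FPKM in CA1 and 9.35 in WBC, neither). Of 28 potassium channel genes 22 were CA1-high (all genes, 18.7%). Only 1, the calcium-activated channel Kcnn4 known from red cells and lymphocytes, was WBC-high (all genes, 8.84%). Kcnn4 had 0.130 to 0.283 FPKM in CA1 and 81.2, 70.9, 75.1 and 75.9 in WBC. Kcna3, the main voltage-gated potassium channel of T cells, stood at 7.81 and 18.2 FPKM and was neither.

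Some genes known from brain cells were about as high in blood as in CA1. Neurogranin, Nrgn, a calmodulin-binding protein used as a marker of pyramidal neurons and also known from platelets, had 1516, 1152, 1365 and 1442 FPKM in CA1 and 980, 1148, 806 and 903 in WBC. Its difference was 0.52 ± 0.14 (SE), with CA1 higher in every library but by less than the limit, and with overlap after median-ratio scaling. The astrocyte enzyme glutamine synthetase, Glul, lay the other way, at 628 ± 94.4 FPKM (SD, n = 4) in CA1 and 933 ± 167 in WBC, without overlap, though the libraries overlapped after quantile normalization.

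Markers of brain cell types were checked against the label of the tissue. Of the measured markers 16 of 19 for pyramidal neurons were CA1-high (all genes, 18.7%), 15 of 16 for interneurons and 15 of 16 for astrocytes. For oligodendrocytes 17 of 18 were CA1-high, and for their precursors 8 of 9. The neuronal nuclear protein Rbfox3 (NeuN) was at 105 FPKM in CA1 and 0.0493 in WBC, the GABA-synthesizing enzyme Gad1 at 93.8 and 0.369, and the astrocyte filament Gfap at 343 and 1.02. Of these markers the myelin gene Mbp was the highest, at 3209, 2456, 2403 and 3020 FPKM in CA1 and 34.0 to 41.7 in WBC. The exceptions were Nrgn, Glul, Cnp (292 and 92.7 FPKM, neither), the proteoglycan Vcan (5.84 and 2.29, neither), Fibcd1, listed at 0 in all 8 libraries, and 2 WBC-high genes. These were Spink8, at 0.189 FPKM in CA1 and 3.85 in WBC, and neuropeptide Y, Npy. The Npy rows of CA1 held 0.505, 0.415, 0 and 0 FPKM, against 104, 138, 128 and 130 in WBC. Npy is a peptide of hippocampal interneurons, and the other interneuron peptides Sst (182 FPKM), Cck (321) and Vip (15.4) had higher levels in CA1. The symbol Npy has 2 rows in each table. Leaving out symbols of several rows removes Npy itself, so that setting cannot check its values. The CA1 table also lists some genes that every cell uses at 0, so the Npy values are given only as listed.

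Cell types with relatives in blood split within their lists. Of 16 microglial markers 7 were CA1-high (all genes, 18.7%) and 9 neither. The complement genes C1qa (50.1 FPKM in CA1, 0.325 in WBC), C1qb and C1qc and the markers Tmem119 (12.0 and 0.800), Sall1 and Gpr34 were CA1-high. P2ry12, a purinergic receptor of microglia and platelets, was higher in every WBC library (42.3 to 55.1 FPKM) than in any CA1 library (14.3 to 20.9), as a difference of -1.36 below the limit. The myeloid genes Csf1r (20.6 and 44.7), Aif1 (25.1 and 45.3) and Itgam (2.75 and 6.46) also had higher means in WBC. Of 14 endothelial markers 7 were CA1-high, including the tight junction protein Cldn5 (63.0 and 0.149). Vwf (5.51 and 76.1) and Pecam1 (7.13 and 67.7), which platelets share, were WBC-high. Among 15 markers of choroid plexus and ependyma 5 were CA1-high and 2 WBC-high (all genes, 18.7 and 8.84%). The 2 WBC-high genes were the water channel Aqp1 (1.74 and 638 FPKM) and coagulation factor F5 (2.21 and 335). Aqp1 is also a red cell membrane protein, and F5 is stored in platelets. Without CA1 sham 1, 9 of the 15 choroid plexus and ependyma markers were CA1-high, and after quantile normalization of all 8 libraries 2 of the 15 were.

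**Figure D2:**
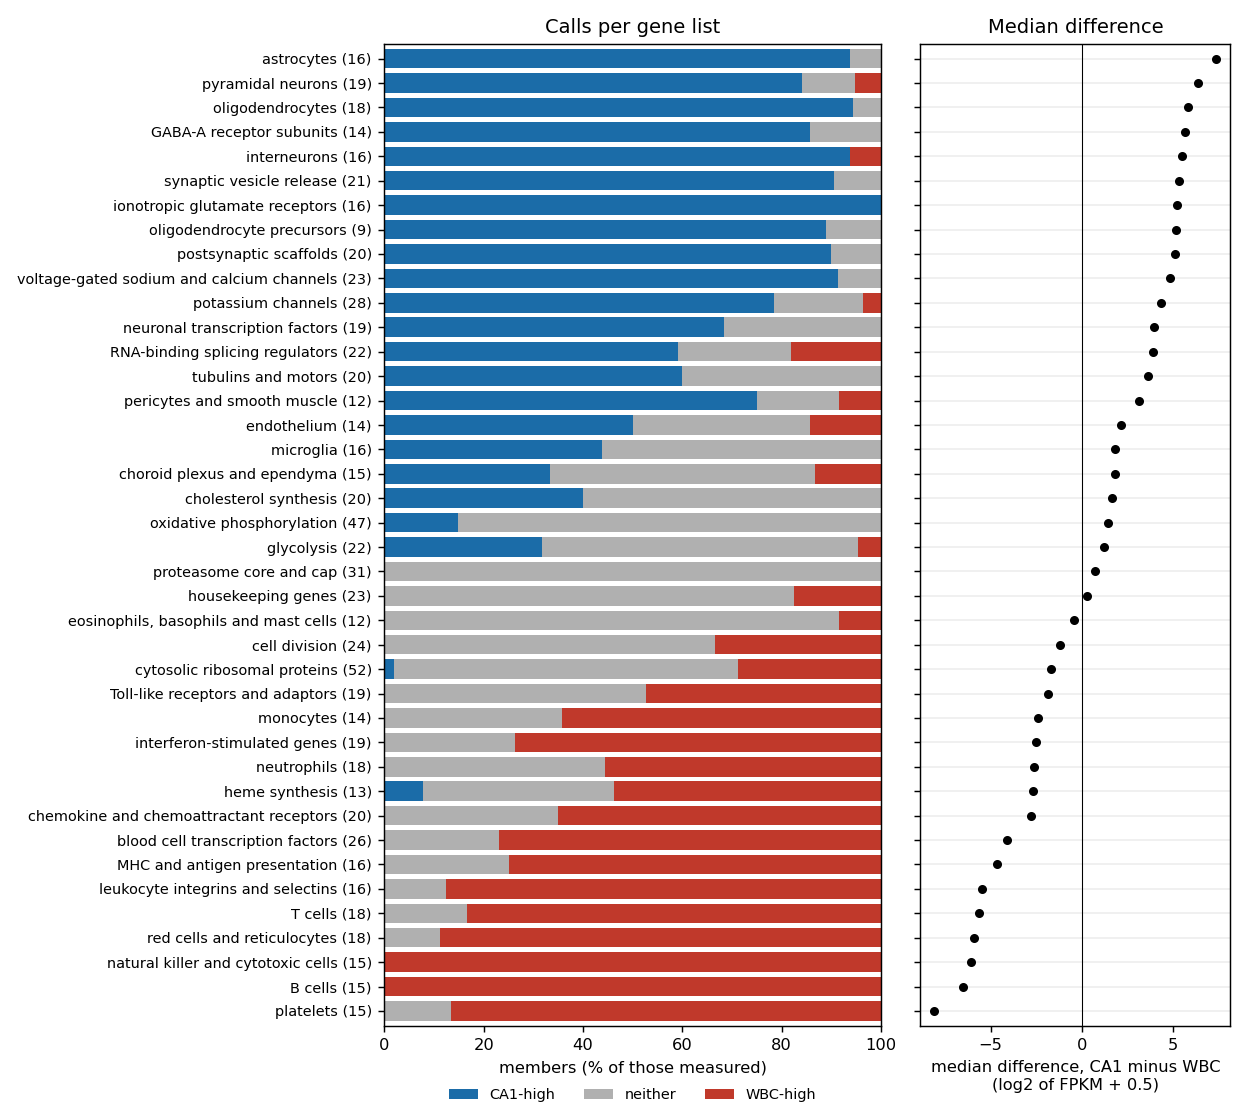
Left, the share of measured members of each of the 40 gene lists that were CA1-high, neither or WBC-high (number measured in parentheses); right, the median difference of each list on the log2 scale, CA1 minus WBC. Astrocytes have the highest median and platelets the lowest. All B cell and natural killer genes are WBC-high, all ionotropic glutamate receptors CA1-high and no proteasome gene is either.

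Among matched genes, a red cell and a platelet transcript were highest in WBC. Alas2, the erythroid enzyme that starts heme synthesis, was the highest matched gene, at 6999.5, 12172, 9962 and 9624 FPKM in WBC and 2.20 to 2.87 in CA1, a difference of -11.57 ± 0.18 (SE, n = 4 per tissue). The platelet chemokine Pf4 came second, at 6099, 7300, 5304 and 5757 FPKM in WBC and 2.69 to 6.09 in CA1. WBC sham 2 held the highest value of both genes, and neither overlapped with CA1. The other large differences on the WBC side were the red cell anion exchanger Slc4a1 (1697 ± 293 FPKM in WBC, SD, and 0.272 ± 0.0556 in CA1), the lipoxygenase Alox15, known from reticulocytes (3043 ± 1046 and 1.09 ± 0.226), the galectin Lgals5 (difference -10.72), the secreted phospholipase Pla2g2a (-10.68), the platelet receptor Clec1b (-10.53), the unnamed gene LOC287167 (-10.38), Ahsp, which stabilizes free alpha globin (-10.33), the interferon-induced Rsad2 (-10.13) and the lymphocyte surface peptide Cd52 (-9.82). Ttc39a was listed at 0 in all 4 CA1 libraries and at 528 to 651 FPKM in WBC, so no fold is given for it.

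Of 18 measured markers of red cells and reticulocytes 16 were WBC-high (all genes, 8.84%). The exceptions were the red cell transcription factor Gata1, at 0.0707 FPKM in WBC, and the transferrin receptor Tfrc (36.9 FPKM in CA1 and 21.3 in WBC). Why Gata1 was near 0 was not tested. These 18 genes held 4.63, 6.33, 5.98 and 5.42% of the FPKM of matched genes in the WBC libraries and 0.103 to 0.113% in CA1. The 15 platelet markers, 13 of them WBC-high, held 3.06, 3.14, 2.52 and 2.81% in WBC and 0.328 to 0.434% in CA1, where Nrgn was the largest member. Over all rows with status OK, named or not, the shares in WBC were 2.22, 3.17, 3.15 and 2.60% for the red cell list and 1.47, 1.57, 1.33 and 1.35% for the platelet list. Hemoglobin itself could not be read in WBC: its rows there carry the authors' status HIDATA, for loci with too many fragments, and are listed at 0. In CA1 the row of Hba1 and Hba2 held 321 to 463 FPKM and that of Hbb 219 to 289. The labels call these libraries white blood cells, and how far their other levels moved with the red cell and platelet transcripts was not tested.

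**Figure D3:**
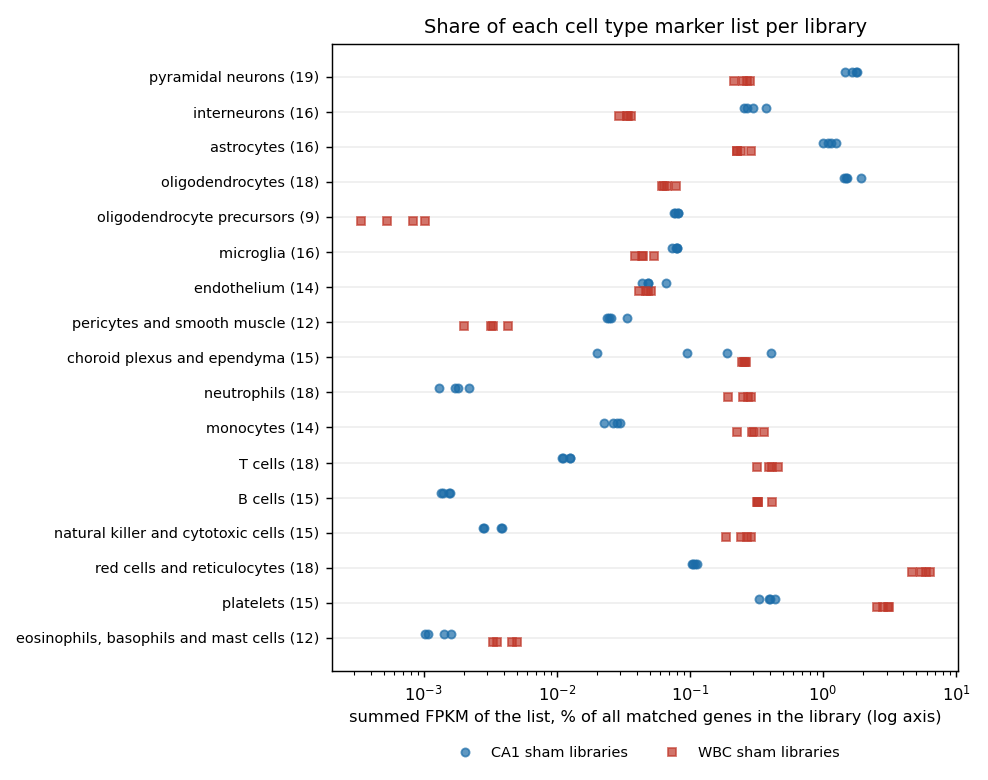
Summed FPKM of each cell type marker list as a percent of all matched genes in a library (log axis); circles are the 4 CA1 sham libraries, squares the 4 WBC sham libraries, with the number of genes per list in parentheses. Red cell markers hold 4.63 to 6.33% of the WBC libraries, T cell markers at most 0.461%, and the choroid plexus list spreads from 0.0201 to 0.406% in CA1.

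All 15 B cell markers were WBC-high (all genes, 8.84%). Among them were Cd79b of the B cell receptor (331, 381, 366 and 445 FPKM in WBC, at most 0.146 in CA1) and Fcrla (111 and 0.0829). All 15 genes of natural killer and cytotoxic cells were WBC-high, led by the chemokine Ccl5 (359 FPKM in WBC, 0.607 in CA1) and Gzmk (99.2 and 0.0684). Of 18 T cell genes 15 were WBC-high, such as Cd3g of the T cell receptor complex (227 ± 32.9 FPKM in WBC) and Ccr7, the lymph node homing receptor (179). Of the rest, Bcl11b, a factor shared by T cells and neurons, was at 26.1 FPKM in CA1 and 15.6 in WBC, while Il7r was listed at 0 in all 8 and Cd5 at 0.315 FPKM in WBC.

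Myeloid genes were called less evenly. Of 18 neutrophil markers 10 were WBC-high (all genes, 8.84%), headed by the calgranulins S100a9 (510 ± 89.1 FPKM in WBC, SD, n = 4) and S100a8 (338). The granule genes of neutrophil precursors were near 0 in WBC, Mpo at 0.0955 FPKM and Elane at 0.0941. Of 14 monocyte markers 9 were WBC-high, with lysozyme Lyz2 at 826 ± 140 FPKM in WBC and 31.2 ± 4.21 in CA1. Of 12 markers of eosinophils, basophils and mast cells 1 was WBC-high, near the share over all genes (8.84%). It was Cd200r1 at 3.48 FPKM. After quantile normalization 4 of the 12 were WBC-high, against 2066 of all 16086 genes. In WBC all of these 12 were below 10 FPKM on average, the highest being Siglec5 at 7.25.

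Of 16 genes of antigen presentation 12 were WBC-high (all genes, 8.84%). They included the invariant chain Cd74 (1905 ± 154 FPKM in WBC, 6.66 ± 1.39 in CA1), class II gene RT1-Da (734 and 1.91) and B2m, the light chain of class I (4386 and 184). The lysosomal protease Ctss, at 135 FPKM in CA1 and 124 in WBC, was neither. Leukocyte integrins, selectins and related surface proteins were WBC-high in 14 of 16, with the tetraspanin Cd37 at 285 and 2.60. Chemokine receptors were WBC-high in 13 of 20, with Cxcr4 at 302 and 3.37, whereas the fractalkine receptor Cx3cr1 had the higher mean in CA1 (15.9 FPKM, 8.79 in WBC, neither). Toll-like receptors and adaptors were WBC-high in 9 of 19 (14 after quantile normalization). Tlr3, a sensor of double-stranded RNA, had 0.922 FPKM in CA1 and 0.250 in WBC, and its order turned round after quantile normalization. Interferon-stimulated genes were WBC-high in 14 of 19, with Rsad2 at 1864 ± 450 FPKM, Irf7 at 486 and Ifit1 at 330.

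Transcription factors and splicing regulators set the tissues apart within protein families. Of 19 neuronal factors 13 were CA1-high (all genes, 18.7%) and none WBC-high (all genes, 8.84%). Neurod6 (122 FPKM in CA1, 0.252 in WBC) and Neurod2 (61.6 and 0.127) were the highest of those called. Bcl11a, Bcl11b and the activity-regulated Egr1 (40.6 and 11.2) and Nr4a1 (23.4 and 28.8) were measured in both and neither. Of 26 blood cell factors 20 were WBC-high and none CA1-high, led by Nfe2 of megakaryocytes and red cells (408 and 0.161) and the erythroid factor Klf1 (149 and 1.17). The myeloid and B cell factor Spi1, which encodes PU.1, was at 49.1 to 76.9 FPKM in WBC and 2.71 to 3.92 in CA1. Of 22 splicing regulators 13 were CA1-high, such as Rbfox1 (112 and 0.187) and Celf4 (124 and 0.213). Another 4 were WBC-high, namely Ptbp1 (8.96 FPKM in CA1, 63.9 in WBC), Ptbp3 (4.37 and 68.4), Mbnl1 (15.6 and 144) and Mbnl3.

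Of 47 oxidative phosphorylation genes 7 were CA1-high (all genes, 18.7%) and 40 neither. With no limit on fold, 41 of the 47 had every CA1 library above every WBC library (all genes, 43.3%), and the median difference was 1.42. Against this direction, Ndufa1 (179 FPKM in CA1, 376 in WBC) and Uqcrh (175 and 457), subunits of complexes I and III, had the higher mean in WBC. No gene of 31 in the proteasome list was called, with CA1 above WBC in 23 of them (median 0.72). Of 22 glycolysis genes 7 were CA1-high, among them the brain aldolase Aldoc (588 and 3.97) and the phosphofructokinase Pfkm (200 and 5.35), while the lactate exporter Slc16a3 was WBC-high (0.553 and 8.98). Of 20 genes of cholesterol synthesis, which the brain carries out for itself, 8 were CA1-high and none WBC-high, with Hmgcs1 at 114 and 11.4 FPKM. After quantile normalization 5 were. Of 13 heme synthesis genes 7 were WBC-high (all genes, 8.84%). The step that starts the pathway was divided between its 2 enzymes, with the general Alas1 CA1-high (32.3 ± 2.27 FPKM in CA1, 6.22 ± 0.928 in WBC) and the erythroid Alas2 WBC-high. After quantile normalization Alas1 was no longer CA1-high.

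Of 52 cytosolic ribosomal protein genes 15 were WBC-high (all genes, 8.84%), 1 CA1-high and 36 neither, and the median difference was -1.71. The count rose to 22 WBC-high with median-ratio scaling. Rplp0 had 232 FPKM in CA1 and 1074 in WBC. Several rows cannot be read as levels: Rpl8, Rplp2 and Rps19, genes that every cell uses, were listed at 0 in all 8 libraries. Counting these, 6 of the 52 were listed at 0 in all 4 CA1 libraries and 4 in all 4 WBC libraries. Such rows enter the counts and the median. Ribosomal protein genes have many near-identical processed copies, to which the authors' counting may assign fragments. The same limit holds for the housekeeping genes Hprt1 (0.124 and 0.0196 FPKM) and Tpi1. Of 24 cell division genes 8 were WBC-high (all genes, 8.84%), with Mki67 at 14.1 FPKM in WBC and 0.699 in CA1. After quantile normalization 13 of the 24 were WBC-high. Top2a (0.386 and 0.484) and Cdk1 (0.578 and 0.656) were below 1 FPKM on average in both. Of the 40 lists, 15 had more than 50% of their members CA1-high and 13 had more than 50% WBC-high, and no list's median changed sign under common-sum, median-ratio or quantile scaling.

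Of 23 common reference genes for expression work, 4 were WBC-high (all genes, 8.84%), B2m, Rplp0 and Gusb among them, and none CA1-high (all genes, 18.7%). Actb had 1325 ± 26.4 FPKM (SD, n = 4) in CA1 and 1549 ± 139 in WBC. The 5 genes with the smallest difference among the 180 at a mean of at least 100 FPKM in both tissues were the chaperone Clu (573 ± 28.1 FPKM in CA1, 576 ± 97.0 in WBC), Swi5 of DNA repair (138 ± 11.0, 140 ± 23.0), the proteasome subunit Psmb1 (189 ± 18.9, 191 ± 5.14), the translation factor Eif5a (206 ± 19.4, 199 ± 20.8) and the cyclophilin Ppib (125 ± 8.08, 129 ± 7.02). Libraries of the tissues overlapped in each of them, and which tissue had the higher mean changed with the scaling in all 5. Polyubiquitin Ubb, thymosin Tmsb4x and ferritin heavy chain Fth1 were among the 10 highest genes of both tissues. Ubb had 2384 to 2852 FPKM in CA1 and 5093 to 7328 in WBC, a difference of -1.18 that became 0.09 after quantile normalization.

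Whether a tissue prefers one of 2 related genes can be tested, because a factor on a whole library nearly cancels in the ratio of 2 genes of that library. It does not cancel fully, since 0.5 is added to each value. In 7 of the pairs tested a member had a mean below 0.5 FPKM in a tissue, so that the pseudocount sets much of the ratio and its SD there. These include Elavl4 (0.0297 FPKM in WBC), Actl6b (0.0698) and Dpf1 (0.0887). Of 45 pairs listed, 41 were found. In 37 both members were measured well enough, a limit set after values were seen: it leaves out pairs with a member below 1 FPKM in all 8 libraries or listed at 0 in at least 3 libraries of a tissue. The log2 ratio was higher in all 4 CA1 libraries than in all 4 WBC libraries in 35 of the 37, and no pair lay wholly the other way. The pairs had been set up with the gene known from brain as numerator, so this direction is a property of the list. Each of the 35 reached the smallest value that 4 against 4 libraries allow in a 2-sided exact permutation test over 70 splits (p = 0.0286, Benjamini-Hochberg adjusted over the 41 pairs 0.0308). Since the pairs were chosen for a known preference, this p-value adds no support beyond the separation itself. If equal numbers stand for 1 rat, 4 pairs allow no p below 0.125 in a 2-sided sign-flip test. The median difference was 5.74, and in 23 pairs the numerator was the higher gene in every CA1 library and the lower in every WBC library.

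**Figure D4:**
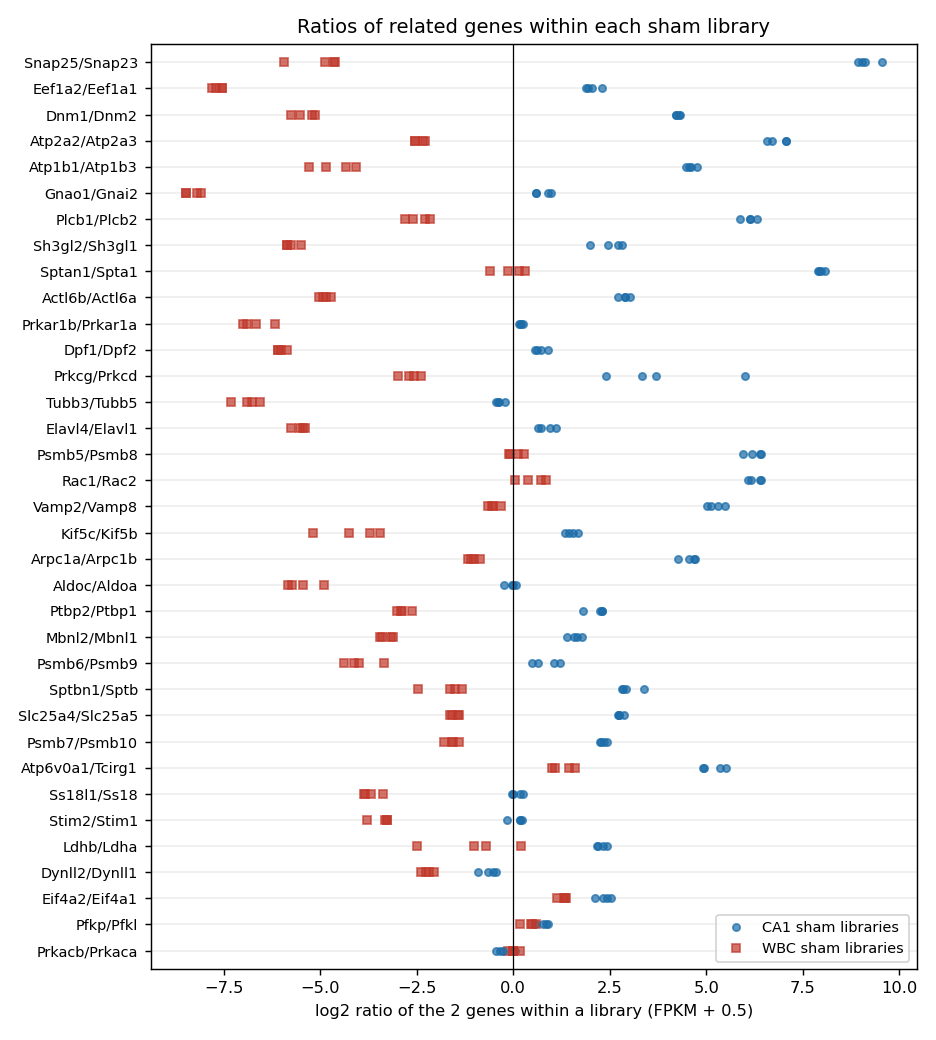
log2 ratio of the 2 genes of each of 35 pairs in each sham library (x), circles for CA1 and squares for WBC, ordered by the difference between the tissues. The clouds are farthest apart for Snap25 over Snap23 and touch for Pfkp over Pfkl and Prkacb over Prkaca.

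Membrane fusion showed the widest exchange. The log2 ratio of Snap25 to Snap23, the SNARE used outside neurons, was 8.94, 9.03, 9.55 and 9.11 in CA1 and -4.63, -5.95, -4.88 and -4.65 in WBC, a difference of 14.18 ± 0.34 (SE). Dynamin 1 over dynamin 2, which cut vesicles from membranes, went from 4.26 ± 0.05 (SD) in CA1 to -5.41 ± 0.29 in WBC. Elongation factor Eef1a2 over Eef1a1, the form used in most cells, went from 2.04 ± 0.18 to -7.65 ± 0.13. Vamp2 over Vamp8, further SNAREs of membrane fusion, stood at 5.23 ± 0.21 and -0.51 ± 0.13.

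Ion pumps and carriers were exchanged as well. The sodium pump beta subunits Atp1b1 and Atp1b3 had log2 ratios of 4.60 ± 0.13 (SD) in CA1 and -4.64 ± 0.54 in WBC. The reticulum calcium pumps Atp2a2 and Atp2a3 stood at 6.85 ± 0.25 and -2.43 ± 0.13. The mitochondrial ADP/ATP carriers Slc25a4 and Slc25a5 stood at 2.77 ± 0.07 and -1.52 ± 0.11. In metabolism, Aldoc equalled Aldoa in CA1 (-0.06 ± 0.13) and fell far below it in WBC (-5.48 ± 0.41). The lactate dehydrogenase ratio, Ldhb over Ldha, was 2.33, 2.43, 2.19 and 2.17 in CA1 and -1.03, -0.71, -2.48 and 0.19 in WBC. This wide spread in WBC came with Ldhb, which ran from 14.4 to 89.7 FPKM there, while Ldha ran from 78.7 to 96.0.

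Regulators of RNA and chromatin differed by subunit. Ptbp2, the neuronal splicing repressor, over Ptbp1 stood at 2.16 ± 0.23 (SD) in CA1 and -2.86 ± 0.16 in WBC, Elavl4 over Elavl1 at 0.86 ± 0.21 and -5.53 ± 0.17, and Mbnl2 over Mbnl1 at 1.38 to 1.78 and -3.45 to -3.12. The 3 subunits of the BAF chromatin remodelling complex that are exchanged when neurons differentiate all differed. Actl6b over Actl6a had log2 ratios of 2.89 ± 0.13 and -4.88 ± 0.13, Dpf1 over Dpf2 of 0.70 ± 0.14 and -6.02 ± 0.11, and Ss18l1 over Ss18 of 0.09 ± 0.13 and -3.69 ± 0.23. The catalytic subunits of the constitutive proteasome and of the immunoproteasome, which makes peptides for class I presentation, differed at all 3 sites. Psmb5 over Psmb8 stood at 6.23 ± 0.21 and 0.05 ± 0.18, Psmb6 over Psmb9 at 0.85 ± 0.35 and -3.96 ± 0.44, and Psmb7 over Psmb10 at 2.32 ± 0.09 and -1.59 ± 0.16.

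The 2 pairs that overlapped were the phosphofructokinases Pfkp over Pfkl (difference 0.35 ± 0.12, SE, exact permutation p = 0.0571, adjusted 0.0586) and the protein kinase A catalytic subunits Prkacb over Prkaca (-0.26 ± 0.12, exact permutation p = 0.114, adjusted 0.114). For the regulatory subunits of the same kinase, Prkar1b over Prkar1a, the ratios were 0.19 ± 0.05 (SD) and -6.69 ± 0.37. The smallest separated difference was that of the translation helicases Eif4a2 over Eif4a1, at 1.06 ± 0.10 (SE).

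Sham libraries of 1 tissue were close for most genes. Among genes of at least 10 FPKM the median SD on the log2 scale was 0.114 in CA1 (5678 genes) and 0.140 in WBC (4642 genes), and 11 and 19 genes had an SD above 1. The most variable gene of CA1 was transthyretin, Ttr, the thyroid hormone carrier made by the choroid plexus, at 3.42, 1271, 570 and 287 FPKM. The markers Aqp1 (0.412, 4.24, 1.55 and 0.759 FPKM) and F5 (0.146, 5.59, 2.20 and 0.907) had the same order of libraries, with CA1 sham 1 lowest and sham 2 highest. The whole list of 15 held 0.0201, 0.406, 0.190 and 0.0958% of the FPKM of matched genes, of which Ttr made up 82.0 to 88.1% in sham 2 to 4. Without Ttr the list held 0.0191, 0.0481, 0.0284 and 0.0172%, with sham 2 again highest and sham 4 lowest. Whether tissue of the plexus was dissected with CA1 was not tested. Next came Sepw1, Rpl17, Plac9, Nek9, Prkcd, Sncg and Lrrc10b, of which Sncg, gamma-synuclein, had 38.9, 106, 69.9 and 9.32 FPKM. The symbols Sepw1, Nek9 and Lrrc10b have 2 rows each in CA1, of which the higher was used, so their spread is uncertain.

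In CA1 sham 1 oligodendrocyte markers held 1.93% of the FPKM of matched genes, against 1.43 to 1.51% in the other CA1 libraries. Matched genes are a small and varying part of the CA1 tables, and over all rows with status OK the shares were 0.360, 0.153, 0.200 and 0.253%, with sham 1 again highest. Postsynaptic scaffolds held 0.757% of matched genes in sham 1, against 0.925 to 0.993%, but over all rows 0.141, 0.0934, 0.138 and 0.167%, with sham 2 lowest. The CA1-high count without this library was 3014 and the WBC-high count 1435. In WBC the most variable genes were Ctrb1, a pancreatic protease precursor (0.134, 126, 6.32 and 82.1 FPKM), Serpinb11, Clic2, RT1-T24-1, Fam111a, RT1-T24-2, Atp6ap1l and Rpl17. The class I genes RT1-T24-1 (0.712 FPKM in WBC sham 2, 24.7 to 34.6 in the others) and RT1-T24-2 (1.05, and 13.5 to 20.4) are members of a family of near-identical copies, and their levels are uncertain. Interferon-stimulated genes held 0.836, 1.08, 0.681 and 0.924% in WBC, with sham 2 highest and sham 3 lowest.

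**Figure D5:**
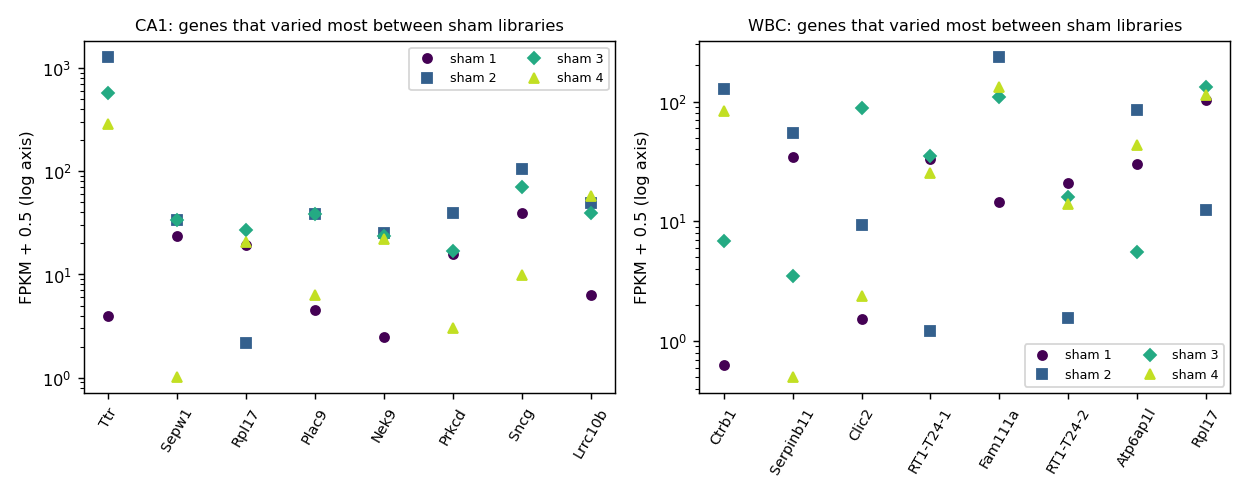
FPKM + 0.5 (log axis) in each sham library of the 8 most variable genes of CA1 (left) and of WBC (right). Ttr spans 3.42 to 1271 FPKM in CA1, and Rpl17 is lowest in sham 2 in both tissues.

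The same genes were read in the injured animals of the study, whose libraries took no part in the calls. Of 2996 CA1-high genes also measured in all TBI libraries 2880 (96.1%) were CA1-high there, and of 1420 WBC-high genes 1236 (87.0%) were WBC-high. Over all genes matched in the TBI libraries, 3034 were CA1-high and 1319 WBC-high. Sham and TBI levels of a tissue were computed together by the authors, so a row misread in sham can be misread again. Among the 37 pairs, 33 were separated in the same direction.

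Start-site sequence of the called genes was searched for letters known from transcription factors, not all of them restricted to a tissue. The RefSeq windows ran from 250 bases before to 50 bases after the start (build GRCr8) and exist for 10625 (66.1%) of the matched genes. The letters GAGGAAGT, bound by PU.1, occur on either strand in 4.91% of windows of WBC-high genes, 1.99% of those of CA1-high genes and 2.53% of all. The letters AGATAAG, of GATA factors, occur in 3.24, 1.70 and 2.25%. The general ETS letters CCGGAAGT occur in 3.14 and 1.99% of WBC-high and CA1-high windows and in 8.07% of those of genes called in neither tissue (all windows, 6.39%). The cyclic AMP response letters TGACGTCA occur in 2.65% of WBC-high, 2.79% of CA1-high and 2.70% of all windows. The letters GGACAGCGC, from the element bound by the repressor REST, occur in 0.993% of CA1-high windows (21 genes), 0.295% of WBC-high windows (3 genes) and 0.734% of all windows, so the low WBC-high share rests on 3 genes. The shares are descriptions, and a match is not a site shown to be bound.

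For each of 3 motifs, the stretches around the letters are shown for the 2 highest genes of the tissue in which the letters were more frequent, 60 bases each, 5′ to 3′ along the gene, with the letters or their reverse complement in capitals. Clec1b and Fech, the enzyme that inserts iron into heme, carry the GATA letters. Cd37, a tetraspanin of B cells (285 FPKM in WBC, 2.60 in CA1), and Arpc1b, the blood cell form of an Arp2/3 subunit (Arpc1a over Arpc1b had a log2 ratio of 4.55 ± 0.20, SD, in CA1 and -1.03 ± 0.13 in WBC), carry those of PU.1. The calcium pump Atp2b2 (85.1 FPKM in CA1, 0.116 in WBC) and the mitochondrial channel Vdac1 (106 and 7.93) carry those of REST.
Clec1b, chr4:164533961-164534020, + strand: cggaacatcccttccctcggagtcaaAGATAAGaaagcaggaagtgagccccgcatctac
Fech, chr18:60248628-60248687, - strand: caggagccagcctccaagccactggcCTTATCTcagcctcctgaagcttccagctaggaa
Cd37, chr1:104860830-104860889, - strand: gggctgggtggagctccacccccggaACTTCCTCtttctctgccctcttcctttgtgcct
Arpc1b, chr12:14609489-14609548, - strand: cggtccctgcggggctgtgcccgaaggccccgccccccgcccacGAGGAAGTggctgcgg
Vdac1, chr10:37033071-37033130, + strand: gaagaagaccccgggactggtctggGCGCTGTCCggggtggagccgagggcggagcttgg
Atp2b2, chr4:148763690-148763749, - strand: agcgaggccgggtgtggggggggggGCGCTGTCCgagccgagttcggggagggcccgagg
In each stretch the capitals lie before the annotated start, between 16 bases (Arpc1b) and 136 bases (Fech) from it.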

How the data were processed

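Poly-A RNA was sequenced from CA1 and WBC, with about 1000 ng of total RNA per library. The deposited values are FPKM computed by the authors, in 1 table per tissue, each with a status (OK, FAIL or HIDATA) per the file headers. Per the submitters' processing notes, TopHat, TopHat2, Bowtie, Bowtie2, Cufflinks and Cuffdiff were used with the rat build rn5. The sources used here do not give their versions, the annotation or the scaling option. The tables have 26031 (CA1) and 24779 (WBC) rows, with no symbol in 8207 and 7054 of them and several symbols in 310 and 309.

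Rows with 1 symbol and status OK in all sham libraries of the tissue were matched by symbol, using the row with the highest mean where a symbol had several (1358 genes). Differences are means of log2(FPKM + 0.5), with no filter on low values. Unnamed and unmatched rows were left out: matched genes held 10.1 to 18.6% of all FPKM in CA1 and 47.9 to 52.6% in WBC, and summed to 351914 to 365359 and 366061 to 413858 FPKM. Their 10 highest genes held 5.54 to 5.84% and 11.9 to 14.2%. FPKM gives no counts, so no counting interval is given.

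Levels across tables were not tested; ratios of gene pairs were, by exact permutation with Benjamini-Hochberg adjustment (threshold 0.05). The call rule and the test were tested on simulated data. Members and gene lists were chosen with earlier results of these data known. Named genes are the 12 largest differences per tissue (at least 20 FPKM), the 10 highest genes per tissue, the list members of highest level, both genes of each pair, the 8 most variable genes per tissue (at least 10 FPKM) and the 5 smallest differences (at least 100 FPKM in both). Exceptions within a list, list members below the highest 4, TBI values, and the motif genes were named after their values were seen. Alternatives were other pseudocounts, low-value filters, scalings, fold limits, row rules, the TBI libraries, each library left out and equal numbers as pairs. Symbols with several rows were left out as an alternative added after the data were seen. Some genes that enter the counts, and pairs that hold them, are not reported by name here. Symbols are as the files give them, and the promoter windows come from RefSeq (GRCr8), another build than rn5. Tables were handled with pandas 2.3.3 and numpy 2.4.6 under Python 3.11.15, figures drawn with matplotlib 3.10.9 and the permutation test checked against scipy 1.17.1.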

Additional observations from a re-analysis of the deposited data

Results flagged for a closer look

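Of 212 groups of 4 libraries examined, 20 (9.43%) had a library set apart from the other three by a gap above Dixon's critical value for 4 samples (gap over the group's range), where chance gives about 1 in 20. Of these groups 16 are of genes chosen for their spread, with 7 of the 20, so their rate cannot be read against chance. Among the other 196 groups it was 13 (6.63%). The groups share libraries and genes, so they are not independent.

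In CA1, sham 1 was set apart in Rtn1 (804 FPKM, others 626 to 639), Calm3 (1294, others 1679 to 1701), Nek9 (1.98, others 21.8 to 25.0), Lrrc10b (5.78, others 38.9 to 56.7), the log2 ratios Stim2 over Stim1 (-0.17, others 0.16 to 0.22) and Ptbp2 over Ptbp1 (1.81, others 2.24 to 2.29) and the oligodendrocyte share of matched genes (1.93%, others 1.43 to 1.51%). CA1 sham 2 was set apart in Rpl17 (1.66 FPKM, others 18.8 to 26.3). CA1 sham 4 was set apart in B2m (211 FPKM, others 172 to 177), Sepw1 (0.515, others 23.1 to 33.6) and Slc25a4 over Slc25a5 (2.87, others 2.72 to 2.74). Levels of Sepw1, Nek9 and Lrrc10b, with 2 rows each in CA1, and of the ribosomal protein gene Rpl17 are uncertain.

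In WBC, sham 2 was set apart in Snap25 (0.955 FPKM, others 1.91 to 1.95), Rsad2 (2537, others 1599 to 1674), RT1-T24-1 (0.712, others 24.7 to 34.6), RT1-T24-2 (1.05, others 13.5 to 20.4), Rpl17 (12.0, others 103 to 132) and Stim2 over Stim1 (-3.80, others -3.33 to -3.27). WBC sham 3 was set apart in Eif4a2 over Eif4a1 (1.14, others 1.32 to 1.35), and WBC sham 4 in the share of B cell genes (0.411%, others 0.319 to 0.327%) and of leukocyte integrins and selectins (0.813%, others 0.671 to 0.692%).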

How the results depend on the processing

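The counts of called genes depended on the limits chosen: 4859 CA1-high and 2559 WBC-high at a 2-fold limit, 1945 and 859 at an 8-fold limit, and 1996 and 1140 among genes of at least 5 FPKM. At the 8-fold limit 8 lists, in place of 13, had most members WBC-high. Other settings moved the counts of calls by less than 1.5 times, from 2201 (quantile) to 3772 (pseudocount 0.1) CA1-high and from 1238 (pseudocount 1) to 2066 (quantile) WBC-high. Leaving out each library gave 3006 to 3023 CA1-high and 1403 to 1436 WBC-high genes. Shares of a library depended on the rows counted. Over all rows with status OK, named or not, the red cell list held 2.78% of WBC (5.59% over matched genes), platelets 1.43% (2.88%), and in CA1 synaptic vesicle release held 0.299% (2.04%), pyramidal neurons 0.248% (1.67%) and oligodendrocytes 0.241% (1.59%). The difference in Ubb turned from -1.18 to 0.0925 under quantile normalization. The number of separated pairs stayed at 31 to 36 under the alternatives, 33 of them with the TBI libraries and 31 without symbols of several rows. With equal numbers taken as pairs (a replicate block) 36 of 37 ratios had all 4 differences above 0, but 4 pairs allow no p below 0.125. Over 7562 genes, deviations of equal numbers correlated at 0.20, 0.11, 0.04 and 0.08, and each of the 4 CA1 libraries correlated best with its own number in WBC, but WBC sham 3 correlated better with CA1 sham 4 (0.0468) than with CA1 sham 3 (0.0401), so not every library did. With 1 library left out the median SD lay between 0.0872 and 0.119 for CA1 and between 0.120 and 0.143 for WBC.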

Other observations

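Among 5008 genes of at least 5 FPKM in both tissues, 7 varied between sham libraries in both, with an SD above 0.5 on the log2 scale. In 3 of the 7 (42.9%) equal numbers were lowest in both tissues and equal numbers highest in both, against 518 (10.3%) of all 5008. The ribosomal protein gene Rpl17 had 18.8, 1.66, 26.3 and 20.3 FPKM in CA1 and 103, 12.0, 132 and 112 in WBC. Fam111a, a protease linked to DNA replication, had 1.88, 8.86, 5.02 and 4.74 FPKM in CA1 and 14.1, 233, 108 and 131 in WBC. The metallothionein Mt1a had 10.8, 4.65, 5.23 and 7.59 FPKM in CA1 and 8.34, 3.37, 4.99 and 3.95 in WBC. Cebpb, Ramp3, Rmrp and Rpl30 were the other genes. Rpl17 and Rpl30 are ribosomal protein genes, whose fragments may be assigned to near-identical copies, so their levels are uncertain. These genes were singled out after their values were seen.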
